A study of Mus musculus with 71 samples.

Results

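The data described here are RING1B chromatin immunoprecipitation (ChIP) signals in wild-type mouse cells at the late step of neural differentiation, day 8 against day 6. All 15091 of the 15091 RING1B peaks in the deposited time course table were used, with the 4 WT libraries of day 8 and day 6. J1 mouse embryonic stem cells (ESC), grown on feeder fibroblasts, were aggregated without LIF and received 5 uM retinoic acid after 4 days. They were harvested as neural progenitor cells (NPC) on day 8 or day 6, and the 2 WT groups differ by that day. WT ESC and the ESC, day-6 and day-8 cells of the CBX7-CaPS genotype (CaPS), named for the PRC1 subunit CBX7, complete the 12 libraries of the table and share the estimate of the spread. Each genotype and stage has 2 libraries, 1 from group 3 and 1 from group 5; the series' design text ties comparisons to experiments run together, so day 8 was set against day 6 within each group. The sources used here do not say whether a genotype is 1 clone or several.

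Polycomb repressive complex 1 (PRC1) keeps developmental genes silent. RING1B is its E3 ubiquitin ligase, which places ubiquitin on histone H2A, and the CBX subunits of canonical PRC1 bind H3K27me3, the methyl mark made by PRC2. In ESC, PRC1 covers the CpG-rich promoters of lineage regulators, and during neural differentiation it leaves genes that are switched on while it stays at, or spreads over, those of other lineages. ChIP reads a share of chromatin and not expression, so no cell type is inferred here from the signal.

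Values are tags in a peak scaled to 10 M tags per library. The WT day-8 libraries held 11.81 M tags in group 3 and 6.20 M in group 5, and the WT day-6 libraries held 18.36 M and 2.01 M. The peaks together took 3.86% of tags in group 3 and 6.98% in group 5 at day 8, against 5.89% and 6.59% at day 6, so this share was lower at day 8 in group 3 and slightly higher in group 5. In the shallowest library, WT day 6 of group 5, a value of 0 stood at 22.9% of peaks and allows up to 14.9 tags per 10 M (3 tags, counting error only). The column headers carry the mark "timenorm" for both WT day-6 libraries and "rmdup" for both WT day-8 libraries. The sources used here do not explain these marks, and the difference they mark and the day cannot be told apart.

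Between day 6 and day 8 RING1B passed the test at few sites. It was higher at day 8 at 14 peaks (0.0928% of all peaks) and lower at 36 (0.239%), with limma on log2(value + 1), group number as a block and Benjamini-Hochberg adjusted p below 0.05 over all peaks; 2024 peaks had an unadjusted p below 0.05. Of the peaks that fell, 11 were annotated to exons, 8 to introns, 6 to promoters and 6 as intergenic. These were 1.07%, 0.14%, 0.226% and 0.125% of all peaks with that annotation, against 0.239% of all peaks. The fallen peaks include those at Adgrl3, Pou3f4, Kcna6, Zhx2, Cdh11 and the shared start region of Gm26851 and Pcdh19. Of the 6 peaks that rose in both experiments with no library at 0, 5 lay beyond 10 kb from a start, 3 of them upstream of Epha7 and 1 distal to Nkx6-1. All 36 peaks that fell had both day-8 values below both day-6 values, an arrangement found at 26.7% of all peaks, while 10 of the 14 that rose had both day-8 values above both day-6 values, found at 12.7% of all peaks. The calls rest on few libraries: without WT day 8 of group 5, 3 peaks were higher and 1 lower, without WT day 6 of group 5 the counts were 1 and 0, without WT day 8 of group 3 they were 8 and 21, and without WT day 6 of group 3 they were 304 and 98. With no block for group there were 0 calls in either direction at 1403 unadjusted p below 0.05. The split also moved with scaling: 28% of calls were higher as reported, 53.7% when every library was scaled to the same sum over peaks (115 higher, 99 lower), 67.4% with edgeR and TMM (31 and 15) and 59.3% with DESeq2 (32 and 22). The median log2 change of all peaks was -0.22 as reported and 0.01, 0.02 and 0.11 under these scalings, and the changes below are to be read relative to it.

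**Figure D1:**
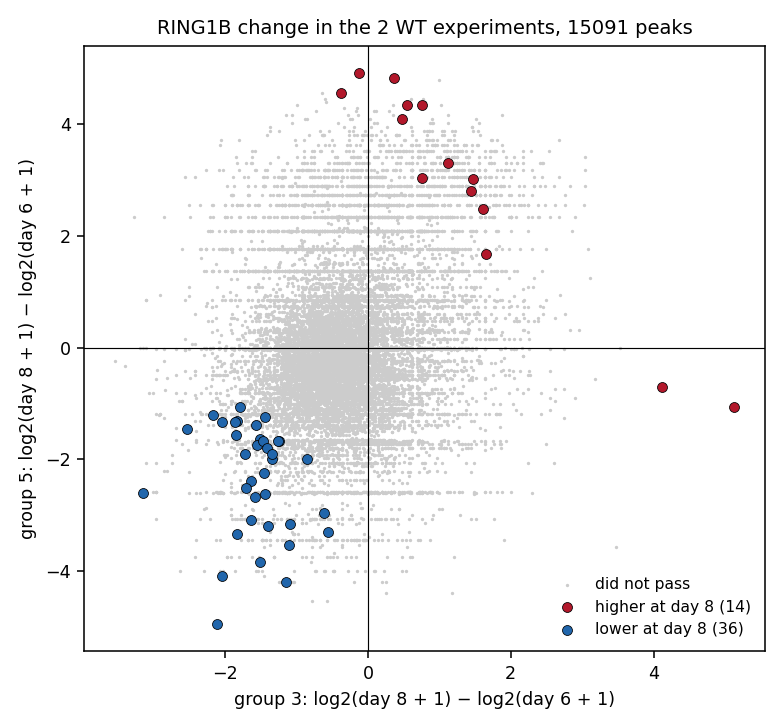
Each point is a RING1B peak; the horizontal axis gives its log2 change from day 6 to day 8 in group 3 and the vertical axis the same in group 5 (WT, value + 1). The 36 peaks lower at day 8 (blue) lie left of and below the zero lines, while 4 of the 14 higher ones (red) lie left of one line or below the other.

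Promoter sequence is shown for the fallen peaks that contain a gene start. Of the 10 fallen peaks with the largest change at 30 tags per 10 M or more within 10 kb of a start, 5 contain the RefSeq start of their gene (GRCm38.p6, the assembly of mm10). The 250 bases before a start of each gene are printed 5′ to 3′ on the gene's strand, with CpG dinucleotides in capitals. Pcdh19 is added because its start lies in the same peak as Gm26851 on the other strand, and Gm996 is given under its RefSeq symbol Ajm1. The windows lie at chr5:81020321-81020570 (plus strand, Adgrl3), chrX:133687530-133687779 (plus, Gm26851), chrX:133688994-133689243 (minus, Pcdh19), chr6:126740675-126740924 (minus, Kcna6), chrX:110814129-110814378 (plus, Pou3f4) and chr2:25580100-25580349 (minus, Ajm1).
Adgrl3: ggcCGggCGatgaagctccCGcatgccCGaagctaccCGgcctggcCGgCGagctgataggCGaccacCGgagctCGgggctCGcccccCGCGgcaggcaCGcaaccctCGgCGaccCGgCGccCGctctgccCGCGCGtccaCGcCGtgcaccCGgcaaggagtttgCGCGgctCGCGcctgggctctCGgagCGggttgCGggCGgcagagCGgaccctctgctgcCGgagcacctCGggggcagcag
Gm26851: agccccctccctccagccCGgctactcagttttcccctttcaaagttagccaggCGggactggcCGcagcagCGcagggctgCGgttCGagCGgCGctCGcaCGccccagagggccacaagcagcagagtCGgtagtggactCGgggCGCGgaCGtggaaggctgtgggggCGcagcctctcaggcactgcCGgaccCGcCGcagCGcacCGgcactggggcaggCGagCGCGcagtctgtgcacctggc
Pcdh19: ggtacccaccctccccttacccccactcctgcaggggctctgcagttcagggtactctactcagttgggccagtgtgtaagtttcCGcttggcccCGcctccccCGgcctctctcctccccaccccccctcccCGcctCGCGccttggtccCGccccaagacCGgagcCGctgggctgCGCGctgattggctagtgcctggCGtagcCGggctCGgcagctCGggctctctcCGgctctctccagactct
Kcna6: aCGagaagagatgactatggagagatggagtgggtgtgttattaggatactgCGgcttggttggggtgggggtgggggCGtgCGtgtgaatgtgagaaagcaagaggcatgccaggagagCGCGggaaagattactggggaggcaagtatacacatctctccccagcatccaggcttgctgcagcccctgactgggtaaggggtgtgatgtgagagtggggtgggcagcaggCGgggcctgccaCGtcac
Pou3f4: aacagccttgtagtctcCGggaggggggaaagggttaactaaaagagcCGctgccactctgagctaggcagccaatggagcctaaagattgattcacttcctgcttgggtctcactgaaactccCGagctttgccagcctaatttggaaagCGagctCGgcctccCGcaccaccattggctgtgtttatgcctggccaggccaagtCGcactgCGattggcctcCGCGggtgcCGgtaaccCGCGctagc
Ajm1: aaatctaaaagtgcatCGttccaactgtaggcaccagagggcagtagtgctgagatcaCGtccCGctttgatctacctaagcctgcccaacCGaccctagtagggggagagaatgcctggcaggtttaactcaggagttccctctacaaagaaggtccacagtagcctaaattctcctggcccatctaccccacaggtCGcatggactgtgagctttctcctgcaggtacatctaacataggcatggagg
The Adgrl3 window, at the most upstream of its starts in the peak, holds 36 CpG, more than 97.4% of the 32851 RefSeq windows. The windows at the other Adgrl3 starts in the peak, not printed, hold 18 CpG each, more than 78.3%. The Kcna6 peak also contains a start of Gm33581 on the other strand, whose window, not printed, holds 8. The Gm26851 window holds 24. Pcdh19 has 16, Pou3f4 13, Kcna6 8 and Ajm1 5. Over all RefSeq windows the median was 6, over the 4426 windows whose start lies inside any RING1B peak it was 16, and over the 20 windows inside peaks that fell it was 13. The letters CACGTG, searched on both strands, occurred in 5.0% of the 20 windows, against 9.35% of windows inside any peak and 6.02% of all windows.

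Of these 10 peaks, 9 are described one by one. Adgrl3, which encodes the synaptic adhesion receptor latrophilin-3, had 45.3 and 82.2 tags per 10 M at day 8, against 168 and 209 at day 6 (chr5:81018843-81023755, log2 change -1.60 ± 0.35 SE, limma adjusted p 0.00784). The peak over the starts of Gm26851, a non-coding transcript, and Pcdh19, a protocadherin gene, had 33.9 and 75.0 tags per 10 M at day 8, against 144 and 192 at day 6 (chrX:133683376-133692209, log2 change -1.70 ± 0.35, adjusted p 0.00346). At Cdh11, which encodes cadherin-11, the values were 69.4 and 141 at day 8 and 245 and 296 at day 6 (chr8:102781384-102788633, log2 change -1.43 ± 0.36, adjusted p 0.0254). In each of these 3 peaks group 3 was the lower of the pair at day 8, and both day-8 libraries were below both day-6 libraries.

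Pou3f4, a POU-domain transcription factor of the developing brain and inner ear, had 23.7 and 21.8 tags per 10 M at day 8, against 61.5 and 84.7 at day 6 (chrX:110814044-110818453, log2 change -1.63 ± 0.38, adjusted p 0.0143). Kcna6, a voltage-gated potassium channel gene, had 23.7 and 22.6 at day 8, against 67.5 and 74.7 at day 6 (chr6:126737643-126741477, log2 change -1.58 ± 0.37, adjusted p 0.0143). The 2 day-8 libraries almost coincide at both genes. Zhx2, a zinc finger and homeobox repressor, had 48.3 and 50.8 at day 8, against 117 and 164 at day 6 (chr15:57691736-57696908, log2 change -1.47 ± 0.35, adjusted p 0.0184). A peak near the start of its relative Zhx1, chosen after its values were seen, also fell, with 11 and 8.06 tags per 10 M at day 8, against 31.6 and 54.8 at day 6 (log2 change -2.03, adjusted p 0.00835).

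The remaining 3 of the 9 were Gm996, Thbd and Coasy. Gm996, annotated by RefSeq as Ajm1, a gene of apical cell junctions, had 32.2 and 59.7 tags per 10 M at day 8, against 118 and 150 at day 6 (log2 change -1.58 ± 0.36, adjusted p 0.0113). Thbd, which encodes the endothelial receptor thrombomodulin, had 15.2 and 16.9 at day 8, against 45.2 and 54.8 at day 6 (log2 change -1.57 ± 0.40, adjusted p 0.0324). The peak assigned to Coasy, a gene of coenzyme A synthesis, lies 1.88 kb from that start over the 3′ end of Hsd17b1, an estrogen-synthesis enzyme gene, and had 47.4 and 33.9 at day 8, against 114 and 110 at day 6 (log2 change -1.46 ± 0.36, adjusted p 0.0214).

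Farther than 10 kb from an annotated start, 10 peaks fell, and the 3 strongest changes at a level of at least 30 tags per 10 M were at Ptprd, Tmem170 and Zfhx3. Within an intron of Ptprd, a receptor tyrosine phosphatase of synapses, the peak chr4:76447495-76451760 had 33.9 and 40.3 tags per 10 M at day 8, against 102 and 137 at day 6 (log2 change -1.65 ± 0.36, adjusted p 0.00635). The peak assigned to Tmem170 lies in an exon of Chst5, a sulfotransferase gene, and had 23.7 and 18.5 at day 8, against 64.5 and 67.3 at day 6 (chr8:111889144-111891450, log2 change -1.61 ± 0.39, adjusted p 0.0184). An exonic peak of Zfhx3, a large zinc finger and homeobox factor, had 23.7 and 35.5 at day 8, against 72.2 and 94.7 at day 6 (chr8:108790341-108795490, log2 change -1.48 ± 0.38, adjusted p 0.0324).

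Pantr2, a non-coding gene, and Syndig1, a synapse gene, also fell at 30 tags per 10 M or more, by log2 changes of -1.42 and -1.34 (adjusted p 0.0324 and 0.046). The other 21 fallen peaks were weaker: 17 averaged 10 to 30 tags per 10 M over the 4 libraries and 4 averaged under 10. Their strongest adjusted p values were at Zmat4, with 2.54 and 0.81 tags per 10 M at day 8, against 13.6 and 29.9 at day 6 (adjusted p 0.00233), and at Jph2, a gene of muscle membrane junctions, with 4.66 and 3.22 at day 8, against 16.6 and 34.9 at day 6 (adjusted p 0.00319). These 4 were named after their values were seen. Over all 36, log2 changes ran from -3.53 to -1.34 with a median of -1.81.

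Context and earlier stages describe the fallen peaks further. Of the 36, 15 lay within 1 kb of a start (41.7%, against 36.9% of all peaks) and 10 beyond 10 kb (27.8%, against 38.9%). Their median width was 2330 bases, against 626 over all peaks. Of them, 25 (69.4%) overlapped a peak of the authors' ESC RING1B table, against 32.3% of all peaks, and 15 (41.7%) a peak of the day-8 RING1B table, against 21.6%. Each of these tables includes a library of the time course, WT ESC of group 3 and WT day 8 of group 3, so they are not independent of it. With day-8 H3K27me3 peaks 21 overlapped (58.3%), against 28.5%. These shares were higher still, 82.7%, 77.0% and 82.2%, over all peaks of at least 30 tags per 10 M. From ESC to day 6, 15 of the 36 had already passed the test as lower (41.7%), against 14.6% of all peaks and 41.7% of peaks of at least 30 tags per 10 M. That comparison and the present one share the WT day-6 libraries. Median signals of the 36 over time were 68.0 and 99.9 tags per 10 M in ESC for groups 3 and 5, 29.3 and 53.6 at day 6, and 10.8 and 13.3 at day 8.

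**Figure D2:**
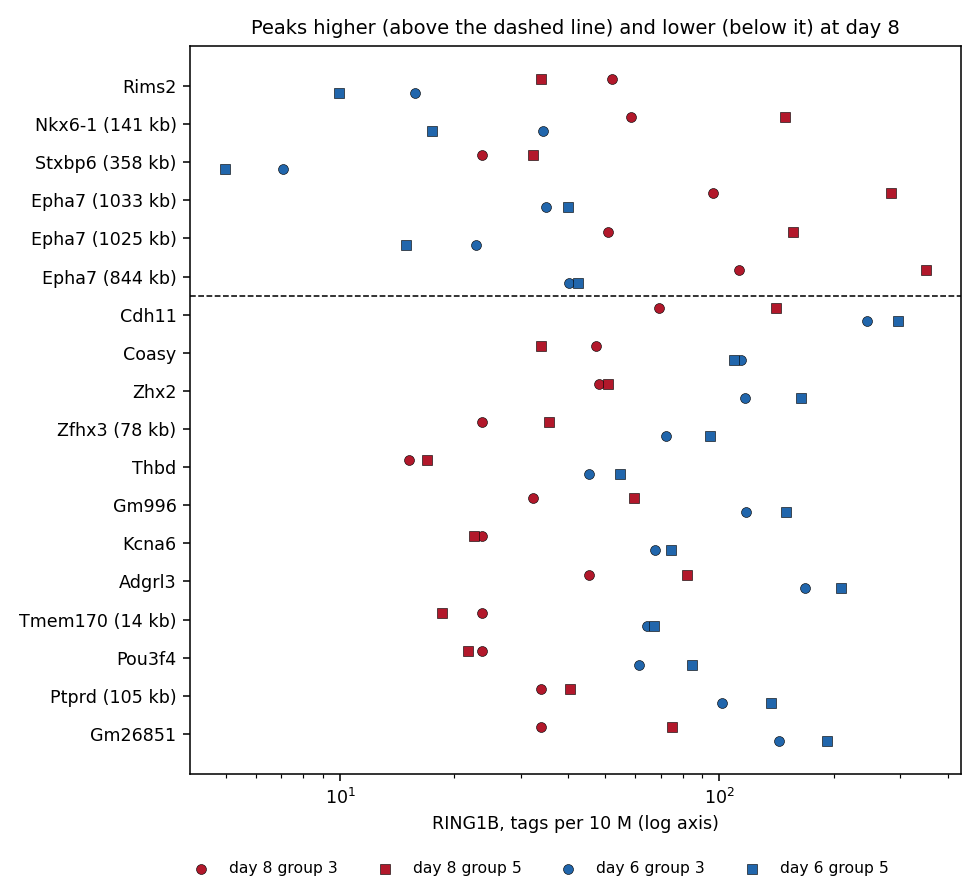
RING1B in tags per 10 M (log axis) in the 4 WT libraries, day 8 in red and day 6 in blue, at 6 peaks that rose in both experiments (above the dashed line) and at the 12 fallen peaks described in full (below it); distances over 10 kb to the annotated start are given in brackets. In each row both day-8 points lie right of both day-6 points above the line and left of them below it.

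The 14 peaks called higher were of 3 kinds. In 6 of them both experiments were higher at day 8 and no library was at 0, and 5 of these 6 lay beyond 10 kb from a start. In 6 others the WT day-6 library of group 5 was at 0, and at 2 the experiments went opposite ways. From ESC to day 6, 9 of the 14 had passed the test as lower (64.3%). This share was 14.6% of all peaks and 41.7% of peaks of at least 30 tags per 10 M. That comparison and the present one share the WT day-6 libraries, so a low day-6 value enters both. No called peak within 10 kb of a start that rose in both experiments averaged 30 tags per 10 M or more over the WT day-8 and day-6 libraries.

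The largest of these 6 rises stood in intergenic chromatin far upstream of Epha7, an ephrin receptor gene with roles in axon guidance and cortical patterning. The peak chr4:27965365-27972076, 844 kb from the annotated start, had 113 and 351 tags per 10 M at day 8 in groups 3 and 5, against 40.02 and 42.4 at day 6 (log2 change 2.25 ± 0.41, adjusted p 0.000228). At chr4:27776692-27783257, 1033 kb away, the values were 96.5 and 284 at day 8 and 34.9 and 39.9 at day 6 (log2 change 2.12 ± 0.42, adjusted p 0.0021), and at chr4:27786123-27789919 they were 50.8 and 156 at day 8 and 22.9 and 15.0 at day 6 (log2 change 2.21 ± 0.53, adjusted p 0.0184). Both day-8 libraries were above both day-6 libraries at these peaks, and group 5 was above group 3 at day 8. A neighbouring peak 1017 kb away had 42.8 and 134 at day 8 and 23.1 and 19.9 at day 6, and missed the threshold (log2 change 1.77 ± 0.48, adjusted p 0.0545). The peak at the Epha7 start itself, 2.53 kb from it, had 61.4 and 95.1 at day 8, against 68.6 and 84.7 at day 6 (log2 change 0.00, adjusted p 0.998). In ESC the 3 distal peaks were at 22.8 and 18.3, 22.6 and 18.3, and 11.6 and 3.67 tags per 10 M, whereas the peak at the start was at 168 and 136. Day-8 H3K27me3 peaks overlapped all 3. The authors' value for the strongest overlapping H3K27me3 peak was 86.2 tags per 10 M at the first. At the others it was the same value, 508, which may stand for a single H3K27me3 peak. None of the 3 overlapped a peak of the authors' separate day-8 RING1B table. Without WT day 8 of group 5 the log2 changes were 1.34, 1.21 and 1.06 with adjusted p of 0.713, 0.806 and 0.89, and without WT day 6 of group 5 they were 2.23, 2.22 and 2.05 with adjusted p of 0.13, 0.146 and 0.745.

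**Figure D3:**
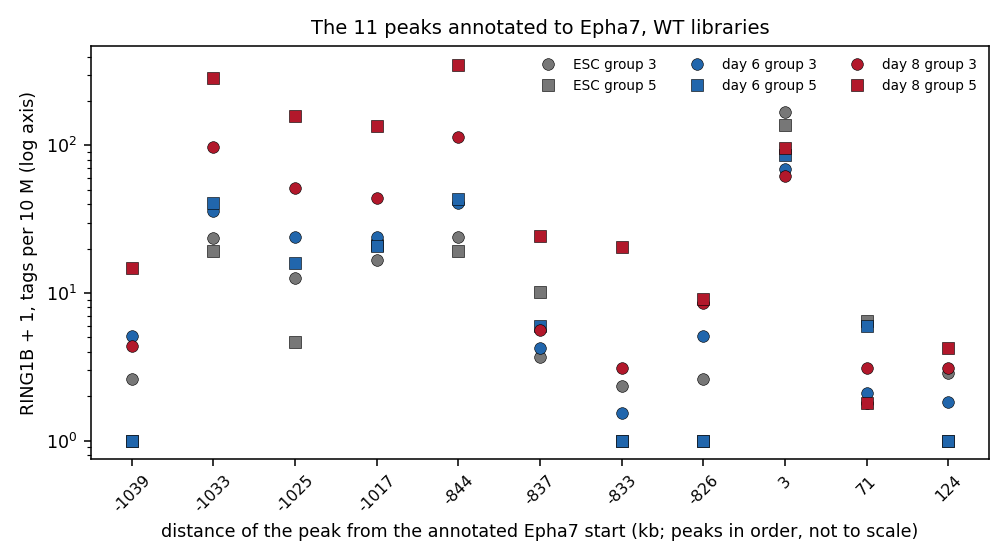
RING1B + 1 in tags per 10 M (log axis) at the 11 peaks annotated to Epha7, ordered along the horizontal axis by distance from its start in kb, for the 6 WT libraries of ESC (grey), day 6 (blue) and day 8 (red). Day 8 stands above day 6 at the peaks 1033, 1025, 1017 and 844 kb upstream, and day 8 and day 6 lie close together at the start, where both ESC values are higher.

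Nkx6-1, a homeodomain regulator of the ventral neural tube, carried a called distal peak and a broad peak at its start. The peak chr5:101521745-101525758, 141 kb from the start, had 58.4 and 149 tags per 10 M at day 8, against 34.3 and 17.4 at day 6 (log2 change 1.89 ± 0.46, limma adjusted p 0.0184). It overlapped no peak of the authors' separate day-8 RING1B table. A neighbouring peak, 126 kb from the start, had 88.9 and 268 at day 8, against 102 and 84.7 at day 6. There the experiments went opposite ways (log2 change 0.73, adjusted p 0.354). At the start the broad Nkx6-1 peak had 1306 and 2959 at day 8, against 1842 and 2110 at day 6, with the experiments in opposite directions (log2 change 0.00, adjusted p 0.999). Without WT day 8 of group 5 the distal log2 change was 1.03 (adjusted p 0.862), and without WT day 6 of group 5 it was 1.38 (adjusted p 0.945).

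Rims2 and Stxbp6 were chosen after their values were seen, being the other 2 peaks higher in both experiments. Rims2 encodes a scaffold of the presynaptic active zone, and the peak 2.18 kb from an annotated start had 52.1 and 33.9 tags per 10 M at day 8, against 15.8 and 9.96 at day 6 (log2 change 1.66 ± 0.39, adjusted p 0.0143). Near Stxbp6, whose product amisyn binds SNARE proteins, a peak 358 kb from the start had 23.7 and 32.3 at day 8, against 7.08 and 4.98 at day 6 (log2 change 2.04 ± 0.49, adjusted p 0.0184). The 9.96 and 4.98 of group 5 at day 6 are below the 14.9 that a count of 0 allows in that library. In WT ESC the Rims2 peak had 34.1 and 47.7, and from ESC to day 6 it was lower (log2 change -1.61, limma adjusted p 0.000758).

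At Kl, Dbx2, Crtac1, Enpp4, Mrap2 and Maged1, also named after their values were seen, the call rests on a value of 0 in WT day 6 of group 5. Their day-8 values in that group were between 16.1 and 29.02 tags per 10 M, above the 14.9 that a 0 allows at day 6. The size of any rise in group 5 is not resolved at this depth. In group 3, Kl had 17.8 at day 8 and 23.4 at day 6, and Dbx2, a homeodomain gene of interneuron progenitors, had 13.1 and 14.4. Maged1 had 16.5 at day 8 and 12.5 at day 6 in group 3.

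Cbx7 and Cbx2, which encode chromodomain subunits of PRC1, each carried a called peak away from the start at which the 2 experiments disagreed. In an intron of Cbx7 (chr15:79920128-79922557) the signal was 1748 and 99.2 tags per 10 M at day 8 in groups 3 and 5, against 49.01 and 209 at day 6 (log2 change 2.03 ± 0.35, adjusted p 0.000148). Over an exon of Cbx2 (chr11:119027600-119028752) it was 413 and 48.4 at day 8, against 22.9 and 79.7 at day 6 (log2 change 1.70 ± 0.37, adjusted p 0.00473). In the authors' separate day-8 RING1B table the peak over the same Cbx2 exon had 593 tags per 10 M in a further WT day-8 library, of group 4. It had 412 in group 3, which is the same library as in the time course. The 2 tables were scaled separately. No peak of the day-8 table overlapped the Cbx7 intron peak. At other stages too the 2 groups differed: in WT ESC the Cbx7 peak had 128 and 979 and the Cbx2 peak 42.7 and 330, and in CaPS at day 6 they had 67.2 and 873 and 35.4 and 847. Without WT day 8 of group 3 the log2 changes were -1.32 and -1.29 (adjusted p 0.264 and 0.289), so within the time course 1 library sets the direction; the cause was not tested. The peaks at the starts did not pass, with 41.1 and 50.8 at day 8 and 37.3 and 59.8 at day 6 for Cbx7 (log2 change -0.05) and 30.1 and 46.8 at day 8 and 57.2 and 79.7 at day 6 for Cbx2 (log2 change -0.83, adjusted p 0.296).

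The 2 experiments diverged with the level of RING1B. Among the 9456 peaks under 10 tags per 10 M the median log2 change was -0.19 in group 3 and 0.07 in group 5. In the 1834 peaks of 30 to 100 tags per 10 M both medians were below 0, at -0.52 and -0.30, and 66.7% of peaks were lower in both. In the 127 peaks of 1000 and over the median was -0.73 in group 3 and 0.44 in group 5, and 113 of the 127 were lower in group 3 and higher in group 5. The share of tags in peaks moved the same ways, and its part in this was not tested. None of these 127 peaks passed the test; of the 361 peaks of 100 to 300 tags 3 were called higher and 5 lower, and of the 159 of 300 to 1000 only the Cbx7 intron peak was called.

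**Figure D4:**
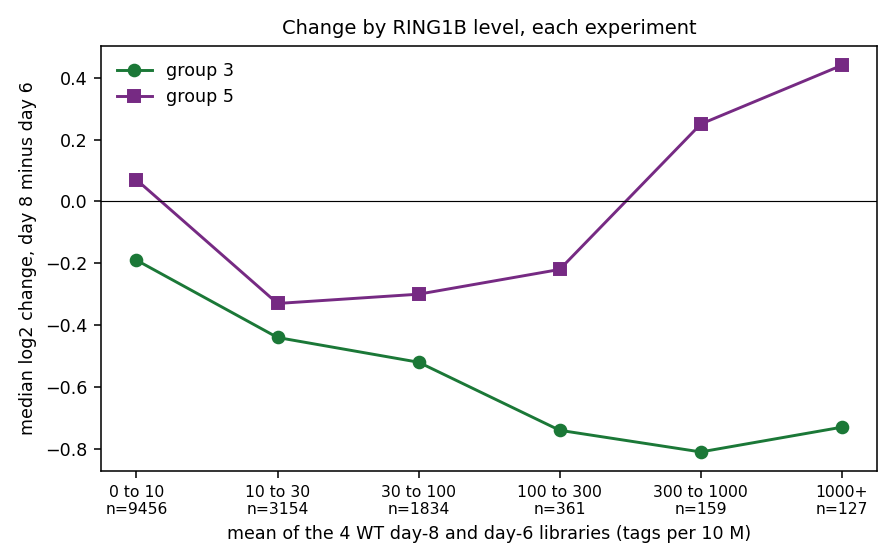
Median log2 change from day 6 to day 8 (vertical axis) in group 3 (circles) and group 5 (squares), for peaks binned by their mean over the 4 WT day-8 and day-6 libraries (horizontal axis, tags per 10 M, number of peaks below each bin). Both medians are below 0 from 10 to 300 tags; above 300 they have opposite signs, with -0.73 and 0.44 in the highest bin.

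Only 11 of the 127 strongest peaks were lower in both experiments and 3 were higher in both; they were named after their values were seen. The 11 include the peaks over Hoxb2 to Hoxb9 and at Pax3, Pax7, Msx1, Zic4, Tfap2b, Pax6, Nr2f1 and Cbx8. They also include the peaks assigned to Gm30731 and to the ribosomal repeat Rn45s. Pax7 had 845 and 1247 tags per 10 M at day 8, against 1772 and 1834 at day 6 (log2 change -0.81, adjusted p 0.521). Pax3 had 974 and 1192 at day 8, against 1709 and 1866 at day 6 (log2 change -0.73, adjusted p 0.573), and Pax6 had 846 and 859, against 1049 and 1417 (log2 change -0.52, adjusted p 0.689). The 3 higher in both were Zic2, Nkx2-4 and Sp8, a forebrain zinc finger gene that had 1274 and 1817 at day 8, against 894 and 991 at day 6 (log2 change 0.69, adjusted p 0.578).

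The Hox clusters, which pattern the body axis, are covered by a few very broad peaks: 38 of the 39 Hox genes lie wholly inside 8 of them. No Hox peak passed the test. The 4 peaks whose values were lower in both experiments hold 11 genes (Hoxb1, Hoxb2 to Hoxb9, Hoxd1 and Hoxd4), and the 4 peaks whose experiments went opposite ways hold 27. Over Hoxb2 to Hoxb9 (chr11:96258626-96358605, 100 kb) RING1B was 2119 and 3093 tags per 10 M at day 8, against 5879 and 6440 at day 6 (log2 change -1.26 ± 0.71, adjusted p 0.425), and over Hoxd4 it was 378 and 486 at day 8, against 1000 and 949 at day 6 (log2 change -1.18 ± 0.45, adjusted p 0.224). Hoxd1 had 29.2 and 56.4 at day 8 and 60.2 and 102 at day 6 (log2 change -0.93), and Hoxb1 had 106 and 132 at day 8 and 188 and 179 at day 6 (log2 change -0.63). In all 4 peaks both day-8 libraries were below both day-6 libraries, an arrangement found at 26.7% of all peaks. Among all peaks of 30 to 100 tags per 10 M, the level of Hoxd1, 66.7% were lower in both experiments. At 100 to 300 tags, the level of Hoxb1, this share was 65.1%. It was 33.3% at 300 to 1000 tags, the level of Hoxd4, and 8.66% at 1000 and over, the level of Hoxb2 to Hoxb9. Whether Hox peaks differ from other peaks of their level was not tested. Over Hoxd8 to Hoxd13 the values were 4562 and 10860 at day 8, against 7430 and 7735 at day 6 (log2 change -0.11 ± 0.78), over Hoxc4 to Hoxc13 6327 and 15075, against 10713 and 11265 (log2 change -0.17), and over Hoxb13 1674 and 4103, against 3226 and 3468 (log2 change -0.35). In these 3 the day-8 value of group 3 was the lowest of the 4 libraries and that of group 5 the highest. Because 1 peak spans a whole cluster, early and late Hox genes of HoxC cannot be separated.

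**Figure D5:**
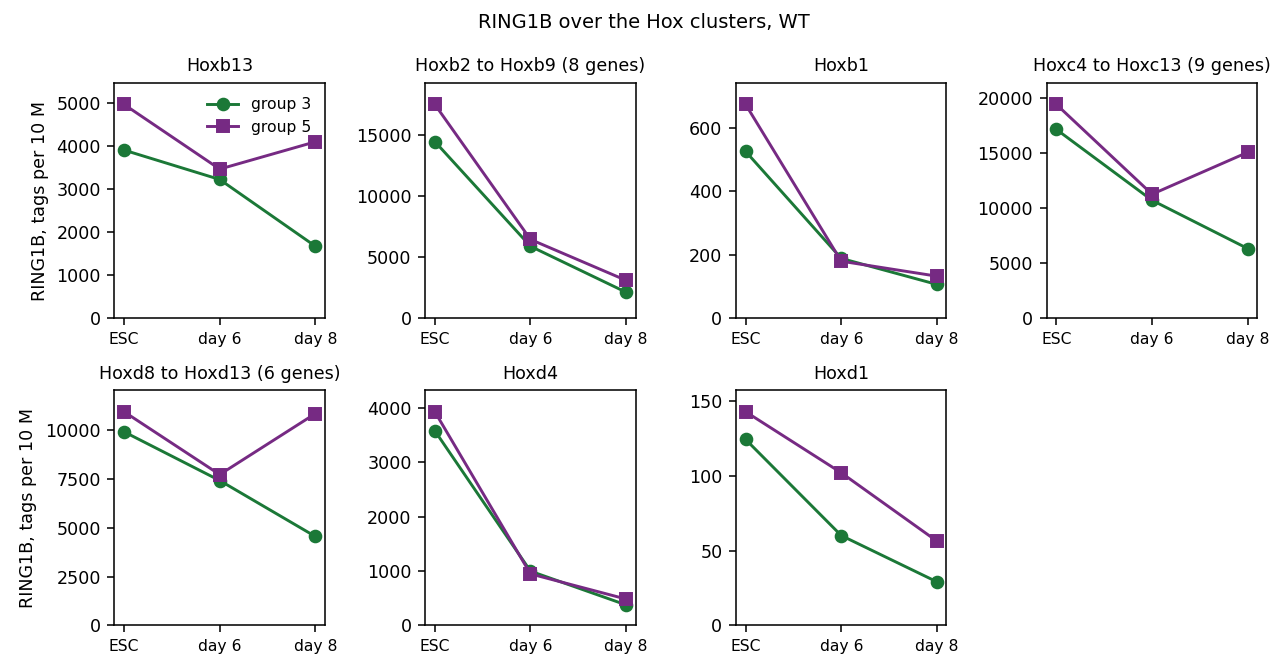
RING1B in tags per 10 M (vertical axes from 0, a scale for each panel) at ESC, day 6 and day 8 in the 2 WT experiments, over 7 of the 8 peaks that wholly contain Hox genes. At Hoxb2 to Hoxb9, Hoxb1, Hoxd4 and Hoxd1 both lines end at day 8 below their day-6 level, and in the other 3 panels the lines part after day 6.

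Each gene was read by its strongest annotated peak no farther than 10 kb from the start, which gave 7874 genes; 8 were higher at day 8 (0.102%) and 25 lower (0.318%), with a median log2 change of -0.34 over all of them. An unadjusted p below 0.05 was found at 1074 of these genes (13.6%), the share against which the unadjusted counts of each list below are to be read. Among neural progenitor regulators, the factors that set regional identity and proneural fate, 49 of 59 were measured, 1 was called higher (Dbx2, above) and 0 lower, with medians of -0.28 over both experiments, -0.76 in group 3 and 0.25 in group 5. The strongest were Otx1, Otx2 and Zic2. Otx2, a forebrain homeodomain gene, had 2333 and 4450 tags per 10 M at day 8, against 2649 and 2541 at day 6 (log2 change 0.31), Otx1 had a log2 change of -0.15 and Zic2 0.26. The panel genes Sox1 (-0.16), Neurog2 (-0.28) and Olig2 (-0.49) had overlapping groups. At the proneural gene Neurog1 both day-8 libraries were below both day-6 libraries, with 257 and 305 tags per 10 M at day 8, against 422 and 508 at day 6 (log2 change -0.72, adjusted p 0.426). The start of Nkx2-2, a ventral neural gene, lies in a peak annotated to 6430503K07Rik with a log2 change of -0.35 (adjusted p 0.793). Hoxc10 and Hoxd13 were read only through the cluster peaks, and Gata6 was not measured by this rule.

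Of 38 neuronal genes 28 were measured and none passed (7 with unadjusted p below 0.05), with a median log2 change of -0.40, and -0.18 over the 25 with a peak within 2 kb of the start. The strongest were the transporter and enzyme genes Gad2 (-0.35), Slc32a1 (-0.71) and Slc17a6 (0.14). Slc32a1, the vesicular GABA transporter, had 116 and 202 tags per 10 M at day 8, against 279 and 224 at day 6.

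Retinoic acid pathway genes, which make, bind or degrade the inducer used here, had 15 of 22 members measured, none of which passed (2 with unadjusted p below 0.05), and a median of -0.04 that became 0.22 with libraries scaled to the same sum over peaks. Single members had values farther from 0 than the list's median, without passing: Cyp26b1, a retinoic acid hydroxylase, had 199 and 238 tags per 10 M at day 8, against 549 and 576 at day 6 (log2 change -1.37, adjusted p 0.0881). Crabp1, a retinoic acid binding protein gene, had 42.8 and 71.8 at day 8, against 99.4 and 122 at day 6 (log2 change -0.98, adjusted p 0.204). Cyp26a1, a second hydroxylase gene, had 174 and 256, against 263 and 316 (log2 change -0.45), while Aldh1a2, which makes retinoic acid, had 414 and 812, against 564 and 501 (log2 change 0.13). At Rarb a weak peak held 2.12 and 0.81 tags per 10 M at day 8, against 2.18 and 0 at day 6. The Hox cofactor genes Meis1 and Meis2 had both day-8 values below both day-6 values, Meis1 with 211 and 268 at day 8, against 483 and 488 at day 6 (log2 change -1.03, adjusted p 0.232), and Meis2 with 143 and 194, against 306 and 374 (log2 change -1.02, adjusted p 0.227).

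Wnt pathway genes had 39 of 42 members measured and none called (9 with unadjusted p below 0.05), with a median of -0.49. Of the 39, 25 (64.1%) were lower in both experiments, against 48.6% of all genes measured. The list's median level was 55.7 tags per 10 M, against 12.9 over all genes measured. Among all peaks of 30 to 100 tags per 10 M, 66.7% were lower in both, near the share of the list. Wnt1, a signal of the midbrain and dorsal neural tube, had 254 and 492 tags per 10 M at day 8, against 476 and 608 at day 6 (log2 change -0.60, adjusted p 0.524), Wnt5a had a log2 change of -0.29 and the transcription factor Lef1 0.19. Patterning ligands and antagonists had 30 of 32 measured and none called (7 unadjusted), with a median of -0.50; the strongest were Fgf9 (-0.35), Fgf8 (-0.41) and Dhh (-0.60).

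No listed gene of another lineage passed. Mesoderm genes (33 of 42 measured, 1 with unadjusted p below 0.05) had a median of -0.31, with -0.84 in group 3 and 0.28 in group 5; among the strongest were Osr2 (0.13) and Tbx18 (0.06), and T, the brachyury gene, had 95.7 and 164 tags per 10 M at day 8, against 245 and 192 at day 6 (log2 change -0.78, adjusted p 0.309). Endoderm genes (15 of 20, 6 unadjusted) had a median of -0.44, and -0.72 over the 12 with a peak within 2 kb of the start, with Nkx2-3 at -0.18, Foxa1 at -0.02 and Gata4 at -0.38. Neural crest and glial genes (15 of 23, 4 unadjusted) had a median of -0.37, with Tfap2b at -0.39, Foxd3 at -0.04 and Msx1 at -0.65. Fibroblast genes (8 of 14, 2 unadjusted) had a median of -0.32, led by Prrx1 (-0.26), Pdgfra (-0.23) and Twist2 (-0.72). Pluripotency genes (17 of 21, 0 unadjusted) had a median of -0.21, led by Nr5a2 (-0.07), Tbx3 (-0.20) and Sox2 (0.51), where WT day 8 of group 3 stood at 1168 tags per 10 M and the other 3 libraries between 536 and 590. Germ cell genes (12 of 17, 3 unadjusted) had the lowest median of the 15 lists, -0.87, with -0.50 in group 3 and -1.36 in group 5. Their median level, 9.51 tags per 10 M, was also the lowest of the lists. In WT day 6 of group 5 their median was 14.95, about what a count of 0 allows there. Tfap2c had a log2 change of 0.13, Prdm1 0.52 and Stk31 -1.78 (limma adjusted p 0.167).

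Polycomb's own genes were also targets. Of 31 PRC1 and PRC2 subunit genes 18 were measured, 1 was called higher (Cbx2, the exon peak above) and 0 lower, with a median of -0.51 and 5 unadjusted. Cbx8 had 672 and 1607 tags per 10 M at day 8, against 1787 and 1886 at day 6 (log2 change -0.82, adjusted p 0.471) and the peak assigned to Bmi1 had a log2 change of -0.18. Among cyclin-dependent kinase inhibitors (5 of 7 measured, 0 called, 1 unadjusted, median -0.07, and -0.64 over the 3 with a peak within 2 kb of the start) the strongest were Cdkn2a, with 1601 and 3571 at day 8, against 2422 and 2611 at day 6 (log2 change -0.07), Cdkn2c (0.23) and Cdkn1c (-0.71). Housekeeping genes (7 of 15 measured, 0 called, 2 unadjusted) had a median of -0.23, with Ppia at -1.40, B2m at -0.56 and Eef1a1 at -0.23, all at weak signal.

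Position and context of the peaks are given as medians, with no test. Peaks within 1 kb of a start had a median log2 change of -0.36, those 1 to 10 kb away -0.22 and those beyond 10 kb 0.02. Peaks of 4 kb and over had -0.61 in group 3 and -0.12 in group 5, and peaks under 1 kb had -0.21 and 0.00. Peaks overlapping the ESC RING1B table had a median of -0.39, against -0.08 for the rest, and those overlapping day-8 H3K27me3 peaks had -0.31, against -0.15. These classes differ in RING1B level, and the part of level was not tested. By chromosome the median was lowest on chromosome 8 (-0.43), followed by 11 (-0.40) and X (-0.38), and highest on 13 (-0.09).

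The CaPS cells, which share no library with the WT step, gave the only test of whether the WT change is particular to WT. The change differed between WT and CaPS at 3 peaks (0.0199%), the Cbx7 and Cbx2 peaks above and Maged1, and at none of the 36 that fell. At those 36 peaks the log2 change in CaPS was below 0 at all, against 69.5% of all peaks, with a median of -0.88, against -0.40 over all peaks; of peaks of at least 30 tags per 10 M, 90.6% were below 0 in CaPS. Of the 14 peaks called higher in WT, 6 were above 0 in CaPS and 8 below, with a median of -0.51. At Adgrl3 it was -1.60 in WT and -1.26 in CaPS. At the 3 Epha7 peaks the changes in CaPS were 0.26, 0.31 and 0.04, and CaPS had 32.4 and 44.1 tags per 10 M at day 8 at the peak 844 kb upstream, against 36.7 and 26.8 at day 6. The difference between WT and CaPS was 1.99 ± 0.57 at that peak, 1.81 ± 0.60 and 2.17 ± 0.75 at the others (SE, adjusted p 0.351, 0.465 and 0.479), and did not pass the threshold.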

How the data were processed

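RING1B ChIP signal was taken from the time course table. Per the file headers, the authors deposited a signal per peak and library, tags in the peak scaled to 10 M tags, annotated on mm10; HOMER 4.10.4, SAMtools 1.9, Bowtie2 2.3.4.3 and cutadapt 1.14 stand in the submitters' processing notes. Per the labels' protocols Drosophila chromatin was spiked in; no source used here says whether the totals hold a correction for it. The 12 libraries share 1 peak set. From these values log2(value + 1) was computed and tested with limma 3.58.1 (trend) in R 4.3.3 over all 15091 peaks, with a mean per genotype and stage and the group number as a block. Prior degrees of freedom were infinite, so a p-value reflects the spread usual at that signal level, not that of a peak's own libraries, and can be small where these disagree. The added 1 makes changes of weak peaks smaller on this scale, whereas a 0 in a shallow library can make them large. At Kl, 0 at day 6 and 22.6 at day 8 in group 5 gave a log2 change of 4.56.

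Multiplying by the header totals gave whole read ends (0.5 tag) for 100% of values within 0.0253 of a tag count; edgeR 4.0.16 (8 higher and 21 lower calls with header totals) and DESeq2 1.42.0 (32 and 22) on these were alternatives. The pairing rests on the series' design text; same-numbered libraries deviated together with correlations of 0.06 to 0.22 (0.09 for WT day 8 with day 6). Nothing in the labels says that libraries are separate cultures, so p-values may reflect technical spread alone. Overlaps (1 base) used bedtools 2.31.1. In the tables used, 10 value columns were not used. Scripts were tested on simulated data.

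Genes, lists and tests were chosen with earlier results of these data known. Named were the 10 strongest falls and rises within 10 kb of a start and the 3 strongest beyond it. These had to pass the test, change the same way in both experiments and average 30 tags per 10 M or more. The rule also took, per list, the 3 genes with most signal and, where at most 4 were called, those. It further took a fixed panel of neural, Hox, retinoic acid, lineage and Polycomb genes. Some items that this rule picks are not reported here.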

Additional observations from a re-analysis of the deposited data

Results flagged for a closer look

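At 3 peaks the change from day 6 to day 8 differed between WT and CaPS by the test of the difference itself (limma, adjusted p below 0.05). At the intronic Cbx7 peak the log2 change in WT minus that in CaPS was 4.29 (WT 2.03, CaPS -2.26), and at the exonic Cbx2 peak it was 3.65 (WT 1.70, CaPS -1.95). The 2 libraries of a group were far apart at both: WT day 8 of group 3 had 1748 and 413 tags per 10 M at these peaks, and CaPS day 6 of group 5 had 873 and 847, while the other library of the same genotype and day had 99.2 and 48.4 in WT and 67.2 and 35.4 in CaPS. A further WT day-8 library, of group 4 in the separately scaled day-8 table, had 593 over the Cbx2 exon. At Maged1 the difference was 3.64 (WT 2.60, CaPS -1.04), with 16.5 and 27.4 tags per 10 M in WT at day 8, against 12.5 and 0 at day 6, where the 0 allows up to 14.9, and with 16.4 and 14.7 in CaPS at day 8, against 16.8 and 64.0 at day 6. Without WT day 8 of group 3 no peak differed.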

How the results depend on the processing

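As reported, 14 peaks were higher, 36 lower and 3 differed between WT and CaPS, with a median log2 change of -0.22. Higher and lower counts were 115 and 99 with libraries scaled to the same sum over peaks, 79 and 90 with a pseudocount of 20, 8 and 30 with the filter at 30 tags per 10 M, 21 and 68 with only the 6 WT libraries, 23 and 86 with only the 4 WT day-8 and day-6 libraries, 8 and 21 with edgeR on header totals, 31 and 15 with edgeR and TMM, 32 and 22 with DESeq2, and 0 and 0 on tags without the scaling to 10 M, an alternative chosen after seeing the data (723 unadjusted p below 0.05). With no replicate block they were 0 and 0, so every call depends on the pairing. Leaving out 1 WT library gave 1 to 304 higher and 0 to 98 lower, and 0 to 215 that differed from CaPS, the highest without WT day 6 of group 3. Same-sum scaling gave 12 that differed, edgeR with TMM 5, DESeq2 0 and unscaled tags 0. The median moved to 0.01 (same sum), 0.02 (TMM), 0.11 (DESeq2) and 0.07 (unscaled tags). Same-sum scaling moved list medians to 0.22 (retinoic acid), -0.27 (PRC1 and PRC2 subunits) and 0.03 (housekeeping), and those of peaks overlapping ESC RING1B, day-8 RING1B and day-8 H3K27me3 to -0.14, -0.09 and -0.06. Reading genes only within 2 kb of the start moved the medians most for cyclin-dependent kinase inhibitors (-0.64), endoderm (-0.72) and neuronal genes (-0.18), less than the spread between experiments, as did the other list and overlap alternatives. The sign turned without WT day 8 of group 3 at Cbx7 (-1.32 to 5.37 over the libraries left out) and Cbx2 (-1.29 to 4.70), and without WT day 6 of group 5 at Kl (-0.35 to 4.53); the cause was not tested. These 3 of the 50 called peaks changed sign under any alternative, and 16 passed in at least 10 of those that gave them an adjusted p (at most 16). Of 59 named peaks that did not pass, 36 had another sign under at least 1 alternative and 7 passed under at least 1. Depth limits weak peaks most in WT day 6 of group 5.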
